A study of Mus musculus with 8 samples.

Results

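This account concerns the genes that activate, carry and sense thyroid hormone, followed across brown fat and skeletal muscle of mice in the cold and at room temperature. Its 7 members, given by symbol, are the activating deiodinase Dio2, the transporter Slc16a10, the hormone receptors Thra and Thrb, and their partner receptors Rxra, Rxrb and Rxrg. Members were found as the array probes annotated to those symbols. Of the 7 genes, 6 had a probe and 5 had a probe above background in at least 1 group, so that 5 of 9963 tested genes are members. They are read by 9 of the 24607 probes, 8 of which were tested. No probe carried the symbol Rxra, which was not analysed here.

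Thyroxine, the main hormone the thyroid releases, binds its receptors weakly until a deiodinase removes an iodine from its outer ring and makes triiodothyronine. Transporters in the cell membrane, Slc16a10 among them, carry both forms across it. The receptors encoded by Thra and Thrb sit on DNA as pairs with a retinoid X receptor (RXR), hold corepressors when no hormone is bound, and exchange them for coactivators when it is. In brown fat, the tissue that burns fuel to make heat, noradrenaline from sympathetic nerves raises cyclic AMP in the adipocyte, and Dio2 is a known target of that signal.

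The study compared 4 groups of C57BL/6J mice with 2 bead arrays each: brown fat after 4 h at 4 °C, brown fat at room temperature, quadriceps muscle after 4 h at 4 °C, and quadriceps muscle at room temperature. Its title concerns Zbtb16, a transcription factor, in the energy use of brown adipocytes. The labels name no transgene or drug, and the sources used here give neither age nor sex. Mice sent to the cold had eaten freely overnight and had neither food nor bedding during the exposure. The labels do not say whether room temperature mice were handled likewise, so that cold and the loss of food and bedding cannot be told apart. They also do not say that replicates came from separate mice, so the p-values cover only how far these samples lie apart, which could be technical spread.

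Between 10468 and 11280 probes were above background on an array, and replicates of a group correlated at 0.977 to 0.9959 over the tested genes. Every array held the markers of its labelled tissue, and several also held markers of the other one. On 3 of the 4 brown fat arrays muscle transcripts were abundant: the muscle actin Acta1 read 6.55 and 14.17 in brown fat in the cold, against 13.85 and 14.24 in brown fat at room temperature, so that replicate 1 of the cold was the 1 brown fat array with little of them. Brown fat transcripts were highest, among muscle arrays, on replicate 2 of the cold: the uncoupling protein Ucp1 read 9.16 and 14.45 in muscle in the cold, against 6.18 and 5.93 in muscle at room temperature, and the lipid droplet protein Cidea 7.14 and 13.10, against 5.81 and 5.89. Replicate 1 of muscle in the cold was thus also above both room temperature arrays. Replicate 1 of cold brown fat and replicate 2 of cold muscle, which differ most from their partners in these markers, are called the arrays that stood apart, and values without them are given together after the members and after the lists.

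The promoter of Dio2 is shown because Dio2 changed most of all members and because it was the member promoter that held the complete cyclic AMP response element. The sequence is the 250 bases before the start of the gene in RefSeq, build GRCm38.p6, chr12:90739039-90739288 on the minus strand, read 5′ to 3′, with the element in capitals.
Dio2 promoter: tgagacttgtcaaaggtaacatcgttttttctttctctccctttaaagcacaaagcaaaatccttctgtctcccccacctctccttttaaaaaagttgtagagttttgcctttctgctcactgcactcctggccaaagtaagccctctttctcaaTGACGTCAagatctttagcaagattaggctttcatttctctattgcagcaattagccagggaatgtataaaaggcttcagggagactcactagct
The element TGACGTCA lies at 90739126 to 90739133, and its first base is 95 bases before the start of the gene. It was searched on both strands in the 32851 RefSeq mouse promoters given here, each running from 250 bases before the start into the transcript, and 588 of them (1.79%) held it. For 6 of the members the table holds 10 promoters, with none for Thra. Of the other 9, 0 held TGACGTCA. The short form TGACG, which is contained in the full element, was also in 1 promoter of Thrb and 1 of Rxrb, and 20.8% of all promoters held it. The core motif of the nuclear receptors, AGGTCA, was in 1 promoter each of Thrb, Rxra and Rxrg, and 16.3% of all promoters held it. A direct repeat of it with 4 bases between the copies, the form bound by thyroid hormone receptor with RXR, was in 0 of the 10 and in 5 of the 32851 (0.0152%).

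Dio2, which converts thyroxine into the active hormone, was the member with the widest range. Its brighter probe, ILMN_2771979, read log2 intensities of 11.31 and 10.77 in brown fat in the cold, against 8.34 and 7.89 in brown fat at room temperature. It read 5.31 and 7.36 in muscle in the cold, against 5.28 and 5.29 in muscle at room temperature. Both brown fat arrays from the cold stood far above both from room temperature, and in muscle the signal passed background on replicate 2 of the cold alone. On the scale of the deposited signals, before any correction, the brown fat values were 2109.7 and 1881.3 in the cold, against 460.4 and 308.1 at room temperature.

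**Figure D1:**
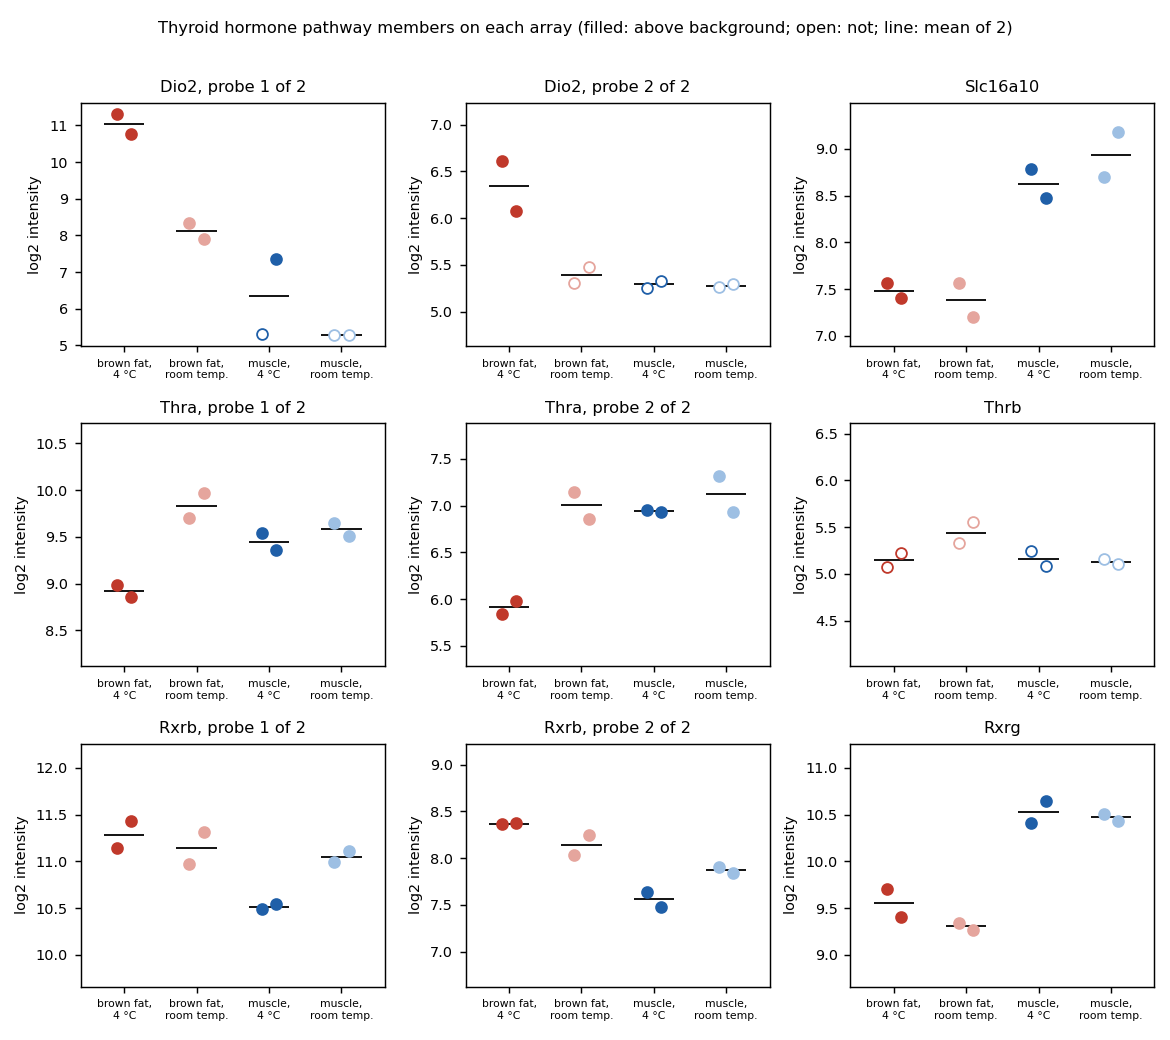
Log2 intensity (vertical axes) of each of the 9 member probes on the 8 arrays, 1 panel a probe, with brown fat at 4 °C, brown fat at room temperature, muscle at 4 °C and muscle at room temperature from left to right; filled points are above background, open points are not, and lines are means of 2 arrays. Dio2 is highest in brown fat in the cold (11.31 and 10.77), Thra is lowest there (8.98 and 8.86), Slc16a10 and Rxrg are higher in both muscle groups, and every Thrb point is open.

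The rise of Dio2 in brown fat was 2.92 log2 units (SE 0.58, 95% interval 1.54 to 4.31), or 7.59-fold, with an adjusted p of 0.0182 (limma, Benjamini-Hochberg over all tested genes). It was 1 of 2 members past the threshold of 0.05 in that comparison, Dio2 higher and Thra lower, where 8.38% of all tested genes were called higher and 8.24% lower. Over 20 alternatives the size lay between 1.94 and 3.20, and the call was lost in 4: leaving out cold brown fat replicate 1 gave a log2 fold change of 2.65 with an adjusted p of 0.0846, leaving out room temperature brown fat replicate 1 gave 3.15 with 0.0649, and leaving out its replicate 2 gave 2.70 with 0.104. The authors' processed values gave 2.91 with an adjusted p of 0.0919. The SE rests on 1 spread shared by all 4 groups, and Dio2 scattered most in cold muscle. Its SD was 1.45 there, against 0.38 and 0.32 in cold and room temperature brown fat and 0.01 in room temperature muscle. The adjusted p for brown fat thus depends on the muscle arrays too, while the rise was 2.92 without either cold muscle array. Without both arrays that stood apart in markers, the rise was 2.65 with an adjusted p of 0.00224. Bulk tissue cannot tell fewer cells of a type from less RNA per cell, here or in any result that follows.

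In muscle, Dio2 was above background on 1 of 2 arrays in the cold and on 0 of 2 at room temperature, so that its level at room temperature is only bounded. Replicate 1 of the cold was not above background either, so no least fold is given for the cold mean. The fitted difference did not pass (1.05 log2 units, SE 0.58, adjusted p = 0.365). That value rested on replicate 2 of the cold, the muscle array richest in brown fat transcripts. Without that array the difference was 0.02 (adjusted p = 0.989), and without replicate 1 in its place it was 2.08 (adjusted p = 0.00671). On that array all 10 brown adipocyte markers were above background with a summed raw signal of 110800, against 9 of 10 and 63430 on replicate 1 of the cold and 9 of 10 and 50700 to 55390 on the muscle arrays at room temperature. Cox7a1 and Cox8b weigh on these sums, being bright in both tissues. At room temperature they read 14.51 to 14.76 in muscle and 14.73 to 14.85 in brown fat. The median log2 intensity of the 10 markers was 13.02 on that array and 8.49 on replicate 1 of the cold. It was 7.05 and 7.43 on the muscle arrays at room temperature. The part of brown fat transcripts in the Dio2 signal of muscle was not tested.

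**Figure D2:**
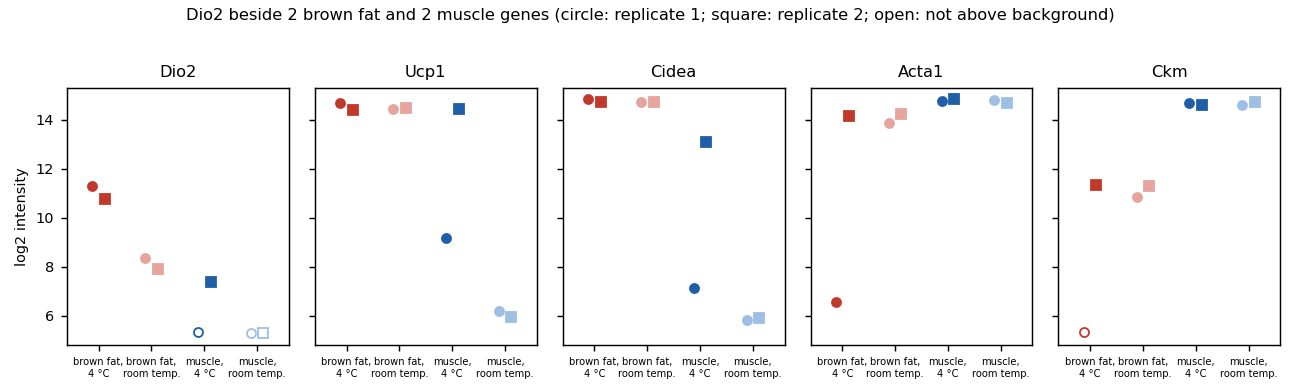
Log2 intensity (vertical axis, shared by the panels) of Dio2, the brown fat genes Ucp1 and Cidea, and the muscle genes Acta1 and Ckm on the 8 arrays, with cold left of room temperature and brown fat left of muscle; circles are replicate 1, squares replicate 2, and open symbols are not above background. Muscle in the cold replicate 2 reads 7.36 for Dio2 and 14.45 for Ucp1, and brown fat in the cold replicate 1 reads 11.31 for Dio2 and 6.55 for Acta1.

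The cold effects on Dio2 in brown fat and in muscle differed by 1.87 log2 units (SE 0.83, interval -0.08 to 3.83), a fitted value that takes in muscle arrays not above background, and this did not pass (adjusted p = 0.222). This was 1 of 5 member differences, of which 0 passed by limma, where 2.08% of all tested genes were called higher and 2.14% lower. By limma 2 of the 5 had an unadjusted p under 0.05 (Thra 0.004 and Rxrb 0.0162). That threshold is looser, and the share of all tested genes under it is not given here. Without muscle in the cold replicate 2 the Dio2 difference was 2.90 with an adjusted p of 0.0191. Without both arrays that stood apart it was 2.63 with an adjusted p of 0.0177.

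Between tissues in the cold, the fitted Dio2 level was 4.70 log2 units higher in brown fat (SE 0.58, adjusted p = 0.000369), with 1 of 2 muscle arrays above background. The size rested on which muscle array was used: it was 3.68 without muscle in the cold replicate 1 (adjusted p = 8.99e-05) and 5.73 without replicate 2 (adjusted p = 1.13e-05). At room temperature it was at least 5.28-fold higher in brown fat, a bound because no muscle array there was above background (fitted adjusted p = 0.0041). Such a bound divides the bright group's mean by a floor for the dim group, which on each dim array is the probe's own signal or the lowest signal above background, whichever is greater, averaged over its arrays. The order of the group means was brown fat in the cold (11.04 ± 0.38), brown fat at room temperature (8.12 ± 0.32), muscle in the cold (6.34 ± 1.45) and muscle at room temperature (5.29 ± 0.01, SD, n = 2 each). The last 2 in that order did not differ beyond their spread.

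A second Dio2 probe, ILMN_2766037, was much dimmer. It read 6.61 and 6.08 in brown fat in the cold, against 5.31 and 5.48 in brown fat at room temperature, where neither array was above background. No muscle array was above background on it, at 5.25 and 5.33 in the cold and 5.26 and 5.29 at room temperature. Cold and room temperature brown fat therefore did not overlap on either probe. The cold value was at least 1.64-fold higher in brown fat (fitted log2 change 0.96, SE 0.17, adjusted p = 0.0143 over all tested probes). In the cold, brown fat was at least 1.69-fold above muscle on it (adjusted p = 0.00135). At room temperature the tissues differed by 0.12 on it (SE 0.17, adjusted p = 0.564 over all tested probes) and did not pass, with no array there above background. On this probe muscle in the cold replicate 2 was not above background.

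Slc16a10, a transporter of thyroid hormones and aromatic amino acids, was a gene of muscle more than of brown fat at both temperatures. It read 7.56 and 7.40 in brown fat in the cold, against 7.57 and 7.20 in brown fat at room temperature. It read 8.78 and 8.47 in muscle in the cold, against 8.70 and 9.18 in muscle at room temperature. Cold and room temperature overlapped within each tissue, and every muscle array was above every brown fat array. Its level in brown fat was 2.21-fold below muscle in the cold (log2 difference -1.14, SE 0.21, adjusted p = 0.00219) and 2.94-fold below muscle at room temperature (-1.55, SE 0.21, adjusted p = 0.000457).

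The cold effects on Slc16a10 were 0.10 in brown fat (SE 0.21, interval -0.39 to 0.58, adjusted p = 0.799) and -0.32 in muscle (SE 0.21, interval -0.80 to 0.17, adjusted p = 0.441). Neither passed, and changes of up to 0.58 in brown fat lie within the interval. The 2 effects differed by 0.41 (SE 0.29, interval -0.27 to 1.10, adjusted p = 0.428). The group means ran from muscle at room temperature (8.94 ± 0.33) and muscle in the cold (8.62 ± 0.22) to brown fat in the cold (7.48 ± 0.11) and brown fat at room temperature (7.38 ± 0.27, SD, n = 2 each), and the neighbours within a tissue did not differ beyond their spread.

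Thra, which encodes the alpha receptor, fell in brown fat in the cold. Its brighter probe, ILMN_1256036, read 8.98 and 8.86 in brown fat in the cold, against 9.70 and 9.97 in brown fat at room temperature. It read 9.54 and 9.36 in muscle in the cold, against 9.65 and 9.51 in muscle at room temperature. The 2 cold brown fat arrays were below all 6 others, while the muscle groups overlapped. The change in brown fat was -0.92 log2 units (SE 0.13, interval -1.23 to -0.60), or 1.89-fold lower, with an adjusted p of 0.00654. It was as large without brown fat in the cold replicate 1 (-0.98, adjusted p = 0.0252), and it lost its call when arrays were scaled by the median (-1.11, adjusted p = 0.211).

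The second Thra probe, ILMN_2687190, gave the same direction. It read 5.84 and 5.98 in brown fat in the cold, against 7.15 and 6.86 in brown fat at room temperature. It read 6.95 and 6.93 in muscle in the cold, against 7.32 and 6.93 in muscle at room temperature. Again the cold brown fat arrays were the lowest of the 8. Its change in brown fat was -1.10 (SE 0.16, adjusted p = 0.00725 over all tested probes). In RefSeq the end of Thra overlaps Nr1d1, a circadian repressor known to be transcribed from the opposite strand. Nr1d1 differed by -0.53 in brown fat (SE 0.23) and did not pass (adjusted p = 0.165).

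In muscle the Thra difference was -0.13 (SE 0.13, interval -0.44 to 0.19, adjusted p = 0.645). The cold effect was 0.79 units more negative in brown fat than in muscle (difference -0.79, SE 0.19, interval -1.23 to -0.34) and did not pass after adjustment (adjusted p = 0.0657). With the mean of both Thra probes in place of the brighter one it passed (-0.85, adjusted p = 0.0394). Over all alternatives the adjusted p of this difference lay between 0.0394 and 1. The second probe alone gave -0.91 (SE 0.23, adjusted p = 0.0768).

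Between tissues, cold brown fat had 1.45-fold less Thra signal than cold muscle (-0.53, SE 0.13, adjusted p = 0.01). That call was lost without muscle in the cold replicate 1 (-0.44, adjusted p = 0.0551) and with median scaling (-0.88, adjusted p = 0.106). At room temperature the difference was 0.26 (SE 0.13, adjusted p = 0.127) and did not pass. The second probe differed between tissues by -1.03 in the cold (SE 0.16, adjusted p = 0.00109 over all tested probes). At room temperature it differed by -0.11 (SE 0.16, adjusted p = 0.558), the opposite sign to the brighter probe. The order of the means on the brighter probe was brown fat at room temperature (9.83 ± 0.19), muscle at room temperature (9.58 ± 0.10), muscle in the cold (9.45 ± 0.13) and brown fat in the cold (8.92 ± 0.08, SD, n = 2 each).

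Some markers of other cell types moved in brown fat in the same comparison as Dio2 and Thra. There 8.38% of all tested genes were called higher and 8.24% lower, and markers within a list did not always move alike. Of 7 endothelial markers 2 fell and 0 rose, and their summed raw signal was 6095 to 6338 in the cold, against 7092 to 8959 at room temperature. Emcn, the brightest at room temperature, read 10.82 and 10.6 in the cold, against 11.73 and 11.52. Cldn5 went the other way without passing, at 11.06 and 10.42 in the cold, against 9.79 and 9.8. Of 4 macrophage markers 2 fell and 0 rose, with sums of 1627 to 2387 in the cold, against 2613 to 2757 at room temperature. Lyz2, the brightest of them, read 11.03 and 9.67 in the cold, against 10.37 and 10.67, so its cold arrays lay on both sides of those values. Of 4 white adipocyte markers 2 fell and 0 rose, with sums of 358.1 to 445.6 in the cold, against 1700 to 2205 at room temperature. By far the brightest at room temperature was Lep, at 10.5 and 10.17, against 5.54 and 5.66 in the cold, not above background. Nnat read 6.17 and 6.28 in the cold, against 7.35 and 8.15. Retn was near background at room temperature (5.89 and 5.76), and Agt was not above background on any brown fat array. Of 4 Schwann cell markers 2 rose and 0 fell, with sums of 3424 to 3684 in the cold, against 2304 to 3036 at room temperature. Pmp22, by far the brightest of them, read 11.73 and 11.46 in the cold, against 11.01 and 10.77. Sox10 did not rise, at 6.02 and 5.95 in the cold, against 6.16 and 6.08. Of 10 brown adipocyte markers 0 passed in either direction, with sums of 144400 to 152700 in the cold, against 146500 to 157700 at room temperature. Ucp1, Cidea, Cox7a1 and Cox8b read 14.41 to 14.87 on brown fat arrays, where the brightest probe read 15.03, so these sums could hardly rise. The spread shared with the unlike cold muscle arrays also made a call hard to reach, as for Pparg (SE 0.80). A steady level is thus not shown. Of 10 muscle fibre markers 0 passed, with sums of 1099 and 71300 in the cold, against 58390 and 61280 at room temperature. Whether these markers follow the number of cells or the expression of single genes was not tested. The part of these cell types in the change of Thra or Dio2 was not tested either.

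Thrb, which encodes the beta receptor, was not above background on any array. Its probe read 5.07 and 5.22 in brown fat in the cold, against 5.33 and 5.55 in brown fat at room temperature. It read 5.24 and 5.08 in muscle in the cold, against 5.16 and 5.10 in muscle at room temperature. The lowest signal of a probe above background was between 5.497 and 5.754 on the 8 arrays. All of these values carry only an upper bound, and Thrb was not tested or ordered.

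Rxrb, an RXR that is expressed widely, was above background everywhere. Its brighter probe, ILMN_2593038, read 11.14 and 11.43 in brown fat in the cold, against 10.97 and 11.31 in brown fat at room temperature. It read 10.49 and 10.54 in muscle in the cold, against 10.99 and 11.11 in muscle at room temperature. The brown fat groups overlapped, and both cold muscle arrays lay below the other 6. The difference in muscle was -0.53 (SE 0.15, interval -0.89 to -0.17), with an unadjusted p of 0.0101 and an adjusted p of 0.108. By limma 0 of 5 members passed in muscle, where 1.83% of all tested genes were called higher and 2.38% lower. Rxrb was the 1 member with an unadjusted p under 0.05, a looser threshold for which the share of all tested genes is not given here.

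In brown fat Rxrb differed by 0.15 (SE 0.15, interval -0.21 to 0.51, adjusted p = 0.566). The cold effects differed between brown fat and muscle by 0.68 (SE 0.22, interval 0.17 to 1.19, adjusted p = 0.12). In the cold, Rxrb was 1.70-fold higher in brown fat than in muscle (0.77, SE 0.15, adjusted p = 0.00347), a call lost with median scaling (0.45, adjusted p = 0.466). At room temperature the tissues differed by 0.09 (SE 0.15, adjusted p = 0.622), and that sign turned with median scaling (-0.34).

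A second Rxrb probe, ILMN_1245492, read 8.36 and 8.37 in brown fat in the cold, against 8.03 and 8.25 in brown fat at room temperature. It read 7.64 and 7.48 in muscle in the cold, against 7.90 and 7.84 in muscle at room temperature. On it, too, the cold muscle arrays were the lowest, and the brown fat groups did not overlap. Its differences were -0.30 for cold in muscle (adjusted p = 0.213 over all tested probes), 0.22 for cold in brown fat (adjusted p = 0.245) and 0.80 between brown fat and muscle in the cold (adjusted p = 0.000733). The means of the brighter probe ran from brown fat in the cold (11.29 ± 0.21), brown fat at room temperature (11.14 ± 0.24) and muscle at room temperature (11.05 ± 0.09), 3 neighbours that did not differ beyond their spread, to muscle in the cold (10.52 ± 0.03, SD, n = 2 each).

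Rxrg, the RXR best known from skeletal muscle and brain, was higher in muscle at both temperatures. It read 9.70 and 9.40 in brown fat in the cold, against 9.34 and 9.27 in brown fat at room temperature. It read 10.41 and 10.65 in muscle in the cold, against 10.51 and 10.43 in muscle at room temperature. Every muscle array was above every brown fat array. Cold and room temperature did not overlap in brown fat and did in muscle. In brown fat Rxrg was 1.97-fold below muscle in the cold (-0.98, SE 0.14, adjusted p = 0.000685) and 2.24-fold below it at room temperature (-1.16, SE 0.14, adjusted p = 0.00028).

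Its cold effects were 0.24 in brown fat (SE 0.14, interval -0.08 to 0.57, adjusted p = 0.28) and 0.06 in muscle (SE 0.14, interval -0.27 to 0.39, adjusted p = 0.856), neither past the threshold. They differed by 0.18 (SE 0.20, adjusted p = 0.612). The means ran from muscle in the cold (10.53 ± 0.17) and muscle at room temperature (10.47 ± 0.05), which did not differ beyond their spread, to brown fat in the cold (9.55 ± 0.21) and brown fat at room temperature (9.31 ± 0.05, SD, n = 2 each).

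**Figure D3:**
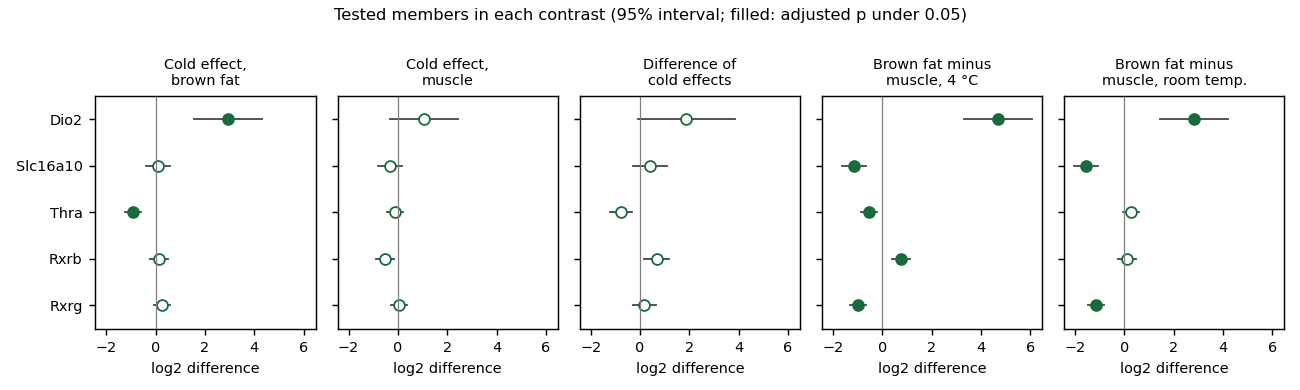
Log2 differences (horizontal axes) with 95% intervals of the 5 tested members in 5 comparisons, 1 panel each: cold minus room temperature in brown fat and in muscle, the difference of these effects, and brown fat minus muscle at 4 °C and at room temperature. Filled points have an adjusted p under 0.05: Dio2 (2.92) and Thra (-0.92) for cold in brown fat, 0 members for cold in muscle and for the difference, all 5 members between tissues at 4 °C and 3 at room temperature.

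Across tissues in the cold, all 5 tested members passed the threshold, 2 higher in brown fat (Dio2 and Rxrb) and 3 lower (Slc16a10, Thra and Rxrg), where 34.1% of all tested genes were called higher and 29.9% lower. At room temperature 3 members passed, Dio2 higher and Slc16a10 and Rxrg lower, where 32.8% of all tested genes were called higher and 33.4% lower. Most genes differed between the tissues, and the members' counts are read against those shares. The comparisons share arrays with each other, each group entering 2 of the 4 differences between groups.

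Without both arrays that stood apart, each cold group keeps 1 array, which is assumed to vary like the room temperature groups. The cold effects in brown fat were then 2.65 for Dio2 and -0.98 for Thra (adjusted p = 0.016), both still past the threshold, and 0.02 for Slc16a10, 0.29 for Rxrb and 0.09 for Rxrg, none past it. In muscle they were 0.02 for Dio2, -0.16 for Slc16a10, -0.04 for Thra, -0.55 for Rxrb (adjusted p = 0.164) and -0.06 for Rxrg, none past it. Between tissues in the cold, all 5 members still passed, with 5.46 for Dio2, 0.94 for Rxrb, -1.38 for Slc16a10, -0.68 for Thra (adjusted p = 0.0204) and -1.01 for Rxrg. The brown fat array that remains in the cold, like both at room temperature, holds muscle transcripts, whose part in the differences between tissues was not tested.

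**Figure D4:**
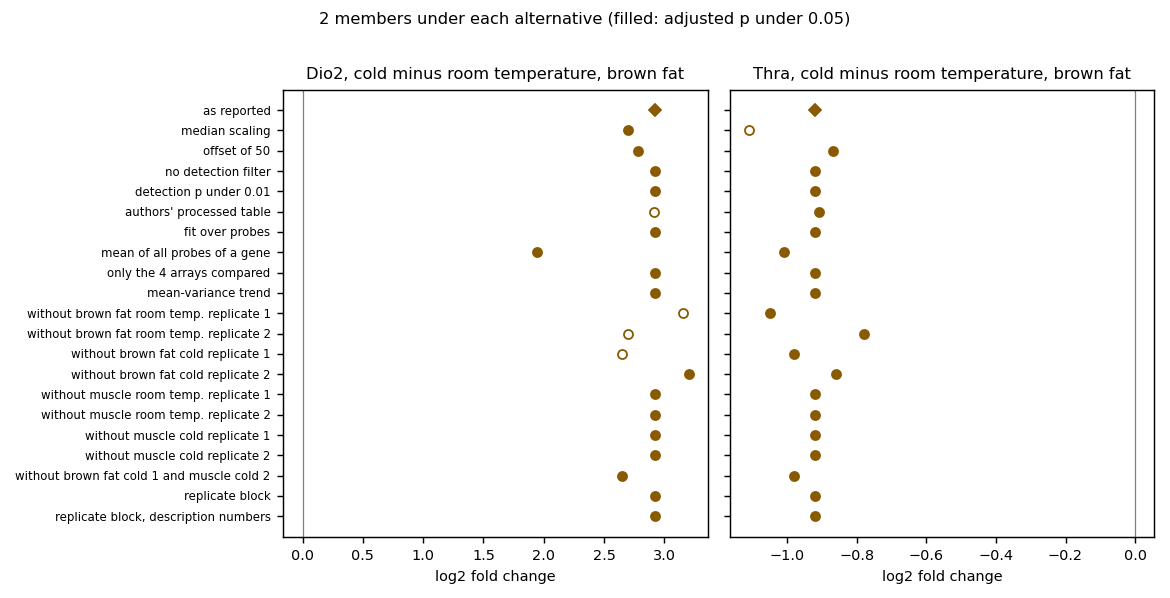
Log2 fold change between cold and room temperature in brown fat (horizontal axes) for Dio2 and Thra under the reported settings (diamond) and each of 20 alternatives (circles), with filled symbols for an adjusted p under 0.05. Dio2 lies between 1.94 and 3.20 and lost its call in 4 alternatives, and Thra lies between -1.11 and -0.78 and lost its call in 1.

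The genes whose pattern over the 8 arrays was most like that of a member were ranked by Pearson's r of log2 intensity, as a description of arrays that share tissue and temperature. For Dio2 they were Lrrc59, a ribosome-binding protein of the endoplasmic reticulum (r = 0.9973), the metalloprotease Adam12 (0.9972) and Vwa3a (0.9956). Adam12 read 8.80 and 8.49 in brown fat in the cold, against 7.10 and 6.67 in brown fat at room temperature, and 5.41 and 6.41 in muscle in the cold, against 5.53 and 5.36 in muscle at room temperature. Like Dio2 it was higher on replicate 2 than on replicate 1 of muscle in the cold. For Thra they were the zinc finger repressor Zeb2 (0.9875), Tmem104 (0.9802) and Osbpl5 (0.975). Zeb2 read 8.43 and 8.40 in brown fat in the cold, against 9.77 and 9.97 in brown fat at room temperature, and 9.48 and 9.11 in muscle in the cold, against 9.67 and 9.49 in muscle at room temperature. Its cold brown fat arrays were the lowest of the 8, as for Thra.

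For Slc16a10 the nearest were the securin Pttg1 (0.9941), the initiation factor subunit Eif3i (0.992) and Zfp281 (0.9895). For Rxrg they were the splicing regulator Mbnl1 (0.9982), the signalosome subunit Cops8 (0.9944) and Tspyl2 (0.9937). For Rxrb they were the mitochondrial GTPase Noa1 (0.9808), Zbtb7a (0.9691) and the translocon subunit Sec61b (0.9671). Mbnl1 read 12.97 and 12.76 in brown fat in the cold, against 12.61 and 12.55 in brown fat at room temperature, and 13.68 and 13.87 in muscle in the cold, against 13.78 and 13.72 in muscle at room temperature. As for Rxrg, every muscle array lay above every brown fat array.

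The counts of the following lists are set beside the shares over all tested genes given above, 8.38% higher and 8.24% lower for cold in brown fat and 1.83% higher and 2.38% lower for cold in muscle. Among other transporters of thyroid hormone, Slc3a2 and Slc7a8 rose with cold in brown fat, and Slco4a1 and Slc7a5 did not pass in either tissue. Of 9 listed genes 4 were tested, and in brown fat 2 rose and 0 fell, with a median log2 change of 0.81 against 0.02 over all tested genes. Slc3a2, the heavy chain that brings amino acid transporters to the membrane, read 7.38 and 8.04 in brown fat in the cold, against 5.95 and 5.48 in brown fat at room temperature, where 1 of 2 arrays was above background (1.99, SE 0.28, adjusted p = 0.00618). Its light chain Slc7a8 read 8.36 and 8.81 in brown fat in the cold, against 7.54 and 6.85 in brown fat at room temperature (1.39, SE 0.24, adjusted p = 0.0108). In muscle 1 rose and 0 fell, with a list median of 0.40 against -0.02 over all tested genes. It was Slc7a8 again, at 9.61 and 9.60 in muscle in the cold, against 8.16 and 8.10 in muscle at room temperature (1.48, SE 0.24, adjusted p = 0.0253).

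The tissues differed in these transporters. Slco4a1, an organic anion transporter, was 3.10 log2 units higher in brown fat than in muscle in the cold (SE 0.29, adjusted p = 0.000109, with 1 of 2 muscle arrays above background) and at least 8.96-fold higher at room temperature (fitted adjusted p = 4.87e-05). The light chains Slc7a8 and Slc7a5 were lower in brown fat. Slc7a8 differed by -1.02 in the cold (SE 0.24, adjusted p = 0.00707) and by -0.94 at room temperature (SE 0.24, adjusted p = 0.0102). Slc7a5 had log2 differences of -1.01 in the cold (SE 0.12, adjusted p = 0.000314) and -0.84 at room temperature (SE 0.12, adjusted p = 0.000685). Against muscle, brown fat had 2 of the 4 higher and 2 lower in the cold, and 1 higher and 2 lower at room temperature, beside 34.1% higher and 29.9% lower of all tested genes in the cold and 32.8% and 33.4% at room temperature.

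Of the other deiodinases and binding proteins, 1 of 6 was tested, Crym, which binds the hormone in the cytosol. It was not above background in brown fat, at 5.33 and 5.32 in the cold and 5.23 and 5.44 at room temperature, and read 8.56 and 8.26 in muscle in the cold, against 8.65 and 9.02 in muscle at room temperature. Muscle was at least 6.79-fold above brown fat in the cold and at least 9.16-fold at room temperature (fitted adjusted p = 1.15e-05 and 6.8e-06). The cold effect in muscle was -0.43 (adjusted p = 0.203). Dio1 and Dio3, the other deiodinases, were not tested because their probes were not above background on both arrays of any group.

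The Dio2 enzyme is a selenoprotein marked for destruction by ubiquitin. Of 3 tested turnover genes 0 passed in brown fat and 0 in muscle by limma. In brown fat the ubiquitin ligase adaptor Wsb1 differed by 0.78 (SE 0.27, adjusted p = 0.0912) and the deubiquitinase Usp20 by -0.44 (SE 0.15, adjusted p = 0.0947). The list median was -0.40 in brown fat against 0.02 over all tested genes, and 0.01 in muscle against -0.02. In muscle Wsb1 differed by 0.29 (adjusted p = 0.594) and Usp20 by -0.06 (adjusted p = 0.87). Marchf6, a ligase of the endoplasmic reticulum, lay below muscle in brown fat both in the cold (-1.77, SE 0.17, adjusted p = 0.000119) and at room temperature (-1.36, SE 0.17, adjusted p = 0.000358). Wsb1 went the other way in the cold (0.78, SE 0.27, adjusted p = 0.0371), a call lost in 10 of 20 alternatives. At room temperature Wsb1 did not pass between tissues (0.29, SE 0.27, adjusted p = 0.373), and Usp20 passed at neither temperature.

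Of 11 tested genes of selenoprotein synthesis and of selenoproteins, 2 rose and 0 fell in brown fat, beside 8.38% and 8.24% of all tested genes, with a list median of 0.03 against 0.02. They were the thioredoxin reductase Txnrd1 (0.45, SE 0.10, adjusted p = 0.0258) and Secisbp2, which recruits selenocysteine to the growing chain (0.44, SE 0.12, adjusted p = 0.0469). Those calls were lost in 8 and 13 of 20 alternatives. In muscle 0 passed, the largest differences being 0.69 for the peroxidase Gpx1 (adjusted p = 0.115) and 0.30 for Sephs2 (adjusted p = 0.411), with a list median of 0.20 against -0.02. Against muscle, brown fat had 7 of these genes higher and 0 lower in the cold, and 6 higher and 2 lower at room temperature, beside 34.1% higher and 29.9% lower of all tested genes in the cold and 32.8% and 33.4% at room temperature. Sephs2, which makes the selenium donor, was 1.66 higher in brown fat than in muscle in the cold (SE 0.18, adjusted p = 0.000216) and 2.05 higher at room temperature (SE 0.18, adjusted p = 7.61e-05).

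Of 3 tested corepressors, which hold the receptors silent without hormone, 1 rose and 0 fell in brown fat: Gps2, a subunit of that complex, by 0.38 (SE 0.10, adjusted p = 0.0469), a call lost in 15 of 20 alternatives. The list median there was 0.19 against 0.02 over all tested genes. In muscle 0 passed, with -0.14 for the deacetylase Hdac3 (adjusted p = 0.516) and -0.08 for Gps2 (adjusted p = 0.707), a list median of -0.08 against -0.02. In brown fat Gps2 lay below muscle, by log2 differences of -0.98 in the cold (SE 0.10, adjusted p = 0.000157) and -1.44 at room temperature (SE 0.10, adjusted p = 2.99e-05).

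Of 7 tested coactivators 3 rose and 0 fell in brown fat, with a list median of 0.16 against 0.02. Ppargc1a, which drives mitochondrial and thermogenic genes, read 12.94 and 12.90 in brown fat in the cold, against 9.50 and 10.18 in brown fat at room temperature (3.08, SE 0.26, adjusted p = 0.00144). Ncoa1, a coactivator of nuclear receptors, read 10.08 and 9.98 in brown fat in the cold, against 9.51 and 9.45 in brown fat at room temperature (0.55, SE 0.10, adjusted p = 0.0116). Med1, the Mediator subunit that binds nuclear receptors, rose by 0.50 (SE 0.13, adjusted p = 0.0462), a call lost in 15 of 20 alternatives. In muscle 0 passed, with 0.74 for Ppargc1a (SE 0.26, adjusted p = 0.168) and -0.48 for Ppargc1b (SE 0.33, adjusted p = 0.462), and a list median of -0.09 against -0.02. Ppargc1b, a relative of Ppargc1a, was higher in brown fat than in muscle in the cold (2.63, SE 0.33, adjusted p = 0.000379) and at room temperature (1.99, SE 0.33, adjusted p = 0.00137).

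Of 8 tested receptors that pair with RXR, 2 rose and 1 fell in brown fat, with a list median of 0.09 against 0.02. Vdr, the vitamin D receptor, read 7.13 and 6.70 in brown fat in the cold, against 5.57 and 5.38 in brown fat at room temperature, where neither array was above background. It was at least 2.43-fold higher in the cold (fitted adjusted p = 0.00404). Rarg, a retinoic acid receptor, was not above background in brown fat in the cold, at 5.53 on both arrays, against 6.27 and 6.47 in brown fat at room temperature. It was at least 1.66-fold lower in the cold (fitted adjusted p = 0.00905). Nr4a2, an immediate early receptor, rose by 0.70 (SE 0.19, adjusted p = 0.049), a call lost in 13 of 20 alternatives.

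In muscle 1 of the 8 partners rose and 0 fell, with a list median of 0.21 against -0.02. It was Nr4a1, a relative of Nr4a2, which read 6.78 and 6.42 in muscle in the cold, against 5.30 and 5.51 in muscle at room temperature, where neither array was above background. It was at least 1.85-fold higher in the cold (fitted adjusted p = 0.0232). Pparg, the adipocyte receptor, stood above muscle in brown fat by 3.89 log2 units in the cold (SE 0.80, adjusted p = 0.00416) and by 5.40 at room temperature (SE 0.80, adjusted p = 0.0008). The value in the cold rested on the muscle arrays, at 7.54 and 10.52, the second being the one richest in brown fat transcripts: it was 2.39 without replicate 1 and 5.38 without replicate 2. Against muscle, brown fat had 5 of the 8 partners higher and 2 lower in the cold, and 5 higher and 0 lower at room temperature, beside 34.1% and 29.9% of all tested genes in the cold and 32.8% and 33.4% at room temperature.

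**Figure D5:**
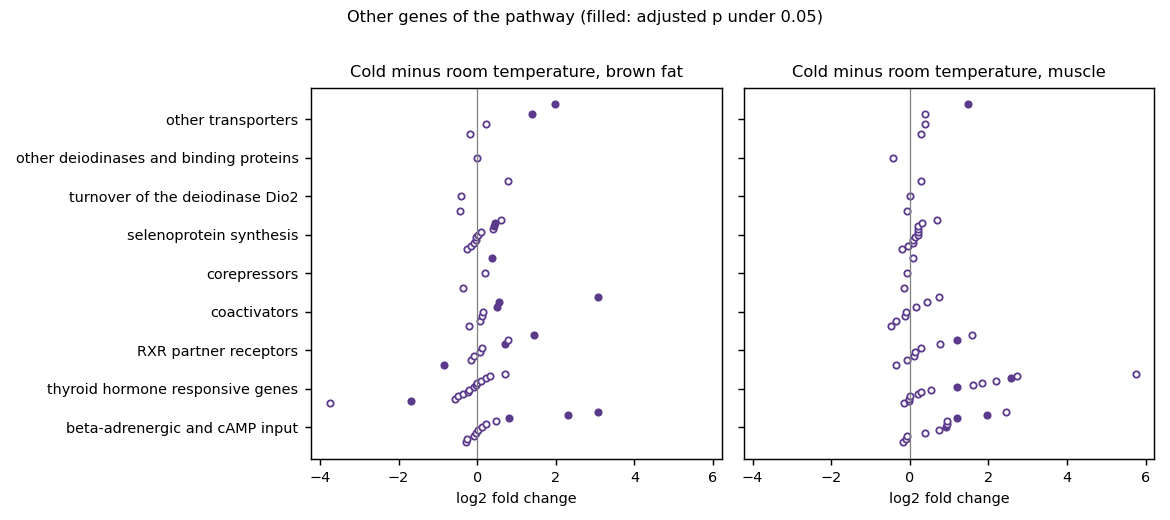
Log2 fold changes between cold and room temperature (horizontal axes) of the tested genes of 9 other lists of the pathway (rows), in brown fat at the left and in muscle at the right, with filled points for an adjusted p under 0.05. Filled points are few in each list, among them Ppargc1a (3.08) and Slc3a2 (1.99) in brown fat and Ucp3 (2.57) and Slc7a8 (1.48) in muscle.

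Of 14 tested genes known to respond to thyroid hormone, 0 rose and 1 fell in brown fat after 4 h of cold, beside 8.38% higher and 8.24% lower of all tested genes, with a list median of -0.15 against 0.02 over all tested genes. Mid1ip1, a partner of acetyl-CoA carboxylase in fat synthesis, read 8.31 and 8.64 in brown fat in the cold, against 10.32 and 10 in brown fat at room temperature (-1.69, SE 0.23, adjusted p = 0.00552). Ucp1 read 14.68 and 14.41 in brown fat in the cold, against 14.45 and 14.48 in brown fat at room temperature. The brightest probe of an array read 15.03, so Ucp1 was near the top of the scale and a change in it may not be measurable. The same holds for Acaca, at 14.66 and 14.73 in brown fat in the cold, against 14.68 and 14.79 at room temperature. Thrsp, Fasn and Gpd2 were also bright in brown fat at room temperature (13.42 to 14.57), which may limit how far a rise could show. The muscle calcium pump Atp2a1 differed by -3.75 (SE 1.94, adjusted p = 0.236), with 6.48 on the brown fat array with few muscle transcripts.

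In muscle 2 of the 14 rose and 0 fell, with a list median of 0.87 against -0.02. Ucp3, a mitochondrial carrier related to Ucp1, read 10.74 and 10.64 in muscle in the cold, against 8.18 and 8.06 in muscle at room temperature (2.57, SE 0.19, adjusted p = 0.00227). Hr, a corepressor that is itself induced by the hormone, read 9.02 and 8.72 in muscle in the cold, against 7.75 and 7.61 in muscle at room temperature (1.19, SE 0.15, adjusted p = 0.0113). On both genes the 2 cold arrays were close to each other, unlike Dio2. Several genes of the list were highest, among muscle arrays, on replicate 2 of the cold, the array richest in brown fat transcripts, with replicate 1 also above room temperature. Fasn, the fatty acid synthase, read 9.49 and 12.38 in muscle in the cold, against 8.01 and 8.38 in muscle at room temperature. Thrsp, a regulator of fat synthesis, read 8.86 and 11.02 in muscle in the cold, against 8.37 and 8.30 in muscle at room temperature, and did not pass (adjusted p = 0.188). The cold effects differed between brown fat and muscle for Ucp3 (-2.95, SE 0.27, adjusted p = 0.00938) and Hr (-1.42, SE 0.21, adjusted p = 0.0221).

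Of 11 tested genes of the beta-adrenergic and cyclic AMP route that acts on Dio2, 3 rose and 0 fell in brown fat, with a list median of 0.12 against 0.02. Beside Ppargc1a they were the cyclic AMP phosphodiesterase Pde4d, at 11.47 and 11.11 in brown fat in the cold, against 8.76 and 9.21 in brown fat at room temperature (2.31, SE 0.20, adjusted p = 0.00166), and the cyclic AMP response modulator Crem, at 8.06 and 7.85 in brown fat in the cold, against 7.26 and 7.03 in brown fat at room temperature (0.81, SE 0.13, adjusted p = 0.0101). In muscle 3 rose and 0 fell, with a list median of 0.93 against -0.02: Nr4a1, Pde4d (1.97, SE 0.20, adjusted p = 0.00587) and Crem (0.93, SE 0.13, adjusted p = 0.0181). Pde4d read 10.33 and 10.06 in muscle in the cold, against 8.33 and 8.10 in muscle at room temperature, and both cold arrays were high. Others of the list were highest on replicate 2 of the cold, the array richest in brown fat transcripts: Pde3b read 6.85 and 9.22, Adcy3 5.33 and 7.21 and Prkar2b 6.32 and 7.93 in muscle in the cold, against 5.62 and 5.54, 5.28 and 5.35, and 6.25 and 6.08 in muscle at room temperature. Their part in the list median was not tested. Against muscle, brown fat had 10 of the 11 higher and 1 lower in the cold, and 8 higher and 0 lower at room temperature, beside 34.1% and 29.9% of all tested genes in the cold and 32.8% and 33.4% at room temperature. Adcy3, an adenylate cyclase, was at least 25-fold above muscle in room temperature brown fat (fitted adjusted p = 0.000151).

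Without both arrays that stood apart, the calls for cold in brown fat were kept by Slc3a2 (2.33), Slc7a8 (1.62), Ppargc1a (3.06), Vdr (fitted 1.23), Rarg (fitted -0.84), Mid1ip1 (-1.52), Pde4d (2.12) and Crem (0.71). They were lost by Ncoa1 (0.50, adjusted p = 0.051), Txnrd1 (0.39, 0.0957), Secisbp2 (0.31, 0.178), Gps2 (0.29, 0.188), Med1 (0.50, 0.122) and Nr4a2 (0.46, 0.14). In muscle the calls were kept by Slc7a8 (1.48), Nr4a1 (fitted 1.38), Ucp3 (2.62), Hr (1.35), Pde4d (2.11) and Crem (0.99), and Ppargc1b, at -1.07, then passed (adjusted p = 0.0201). Between tissues in the cold, the calls of Slc7a8 (-0.80) and Wsb1 (0.56) were lost. Those of Slco4a1 (3.71), Slc7a5 (-0.86), Crym (fitted -3.24), Marchf6 (-2.09) and Sephs2 (1.72) were kept. So were those of Gps2 (-1.09), Hdac3 (-0.74), Tbl1x (0.99), Ppargc1b (3.20) and Pparg (5.39).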

How the data were processed

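Total RNA from 8 tissue samples was amplified, labelled with biotin and hybridised to 1-colour Illumina bead arrays, per the labels' protocols. The deposited signals are intensity values on a linear scale, 1 a probe and array, per the file headers, with no background subtracted as judged from the values. The deposited detection score, headed as a p-value, rises with the signal to 1 and was read as 1 minus a detection p. A second deposited table holds the authors' processed intensity values, read from the values as background-subtracted and quantile normalized, and was used as an alternative. The software behind both tables is not given in the sources used here. Columns of per-sample values with no mapped sample numbered 0.

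Signals were corrected with limma 3.58.1 in R 4.3.3 (normexp by detection p, offset 16, quantile normalization, then log2). Probes entered the tests (11946 did) when a group had a detection p below 0.05 on each of its 2 arrays. The brightest tested probe stood for a gene, a probe with no name for itself, which gave 9963 genes (8561 named). Names came from the platform annotation, where 20980 probes have 1 symbol, 1 has several and 3626 have none, and 20964 matched RefSeq. One linear model of the 4 groups covered all arrays (lmFit, eBayes, 4 residual degrees of freedom, prior 3.07), with Benjamini-Hochberg adjustment over all tested genes and a threshold of 0.05. Second probes come from the same fit over all tested probes. Tests were tried on simulated data. The number of arrays limits the precision.

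Members, gene lists and tests were chosen with earlier results of these data known. The text names every member probe, for each list up to 4 genes past the threshold or else up to 2 others, the 3 most similar genes by Pearson's r, and Ucp1, Cidea, Acta1 and Ckm. Zeb2, Adam12 and Mbnl1 have their values printed. Atp2a1, Thrsp, Ucp1, Fasn, Acaca, Gpd2, Pde3b, Adcy3 and Prkar2b are described beside their list, as are Dio1, Dio3 and Nr1d1. The markers Emcn, Cldn5, Lyz2, Lep, Nnat, Retn, Agt, Pmp22, Sox10, Cox7a1 and Cox8b are described beside theirs. These choices were made after their values were seen. Some genes, such as Ppargc1a and Nr4a1, stand in more than 1 list. Promoters and their motifs are from RefSeq, build GRCm38.p6. The build behind the array is not given in the sources used here, so no other coordinates are printed.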

Additional observations from a re-analysis of the deposited data

Results flagged for a closer look

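No member met a rule for a closer look, since 0 of the 5 tested member differences between the cold effects passed by limma. Among the other named genes of the pathway, 5 had a cold effect that differed between brown fat and muscle by the test of the difference itself (limma, adjusted p under 0.05). The difference, brown fat minus muscle, was 2.34 log2 units for the coactivator Ppargc1a (SE 0.36, adjusted p = 0.0265), 0.66 for the coactivator Ncoa1 (SE 0.13, adjusted p = 0.0467) and 1.32 for the vitamin D receptor Vdr (SE 0.25, adjusted p = 0.0409). It was -2.95 for the mitochondrial carrier Ucp3 (SE 0.27, adjusted p = 0.00938) and -1.42 for the corepressor Hr (SE 0.21, adjusted p = 0.0221). Of 19 alternatives the call was lost in 5 for Ppargc1a, 14 for Ncoa1, 9 for Vdr, 1 for Ucp3 and 6 for Hr, with the direction kept in each.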

How the results depend on the processing

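Each result was recomputed under 20 alternatives, or 19 for the difference between the cold effects, for which a fit to only 4 arrays has no value. The 3 tissue calls at room temperature, and those of Dio2, Slc16a10 and Rxrg in the cold, held in all 20. The count of members called for cold in brown fat was 1 with median scaling (Dio2), 1 with the authors' processed table (Thra) and 1 to 2 leaving out 1 array. For cold in muscle it was 0 to 1 leaving out 1 array. For the difference it was 1 with the mean of all probes (Thra), 1 without both arrays that stood apart (Dio2), and 0 to 1 leaving out 1 array. Between tissues in the cold it was 3 with median scaling and 4 to 5 leaving out 1 array.

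Signs turned for values that had not passed. With median scaling these were Slc16a10 for cold in brown fat (-0.19), Rxrg for cold in muscle (-0.13), and Thra (-0.08) and Rxrb (-0.34) between tissues at room temperature. Leaving out 1 array, the cold effect in brown fat ranged from -0.09 to 0.29 for Slc16a10 and from -0.02 to 0.31 for Rxrb, which was 0 without cold replicate 2, and Crym was 0.09 without room temperature replicate 2. Rxrb between tissues at room temperature ranged from -0.08 to 0.26. In muscle, the cold effect ranged from -0.06 to 0.19 for Rxrg and from -1.07 to 0.10 for Ppargc1b, Usp20 was 0.07 without room temperature replicate 1, and Rxrg was -0.06 without both arrays that stood apart.

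Over all tested genes the calls numbered 252 to 1835 for cold in brown fat (1656 as reported), 46 to 696 in muscle (419), 16 to 817 for the difference (420), 2981 to 7590 between tissues in the cold (6379) and 3446 to 7847 at room temperature (6594). Median scaling moved the median of all tested genes to -0.11 for cold in brown fat and -0.20 in muscle, and to -0.12 and -0.24 between tissues in the cold and at room temperature. In the same order, the share of calls that were higher was then 23%, 66.7%, 37.2% and 37.3%, against 50.4%, 43.4%, 53.3% and 49.5% as reported, and for the difference 25.4% against 49.3%. The cause was not tested. Thra in brown fat was -1.11 under that scaling and did not pass.

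Replicate numbers are shared between groups, but same-numbered arrays did not deviate together (correlations of -0.125 to 0.181 over 6 pairs of groups), and the labels number muscle in the cold both ways round. With the replicate block the members called were 2, 0, 0, 5 and 3, as without it, and all-gene calls were 1387, 241, 186, 6219 and 6429; with the description's numbers they were 1550, 340, 269, 6299 and 6543. Signal over background limits Thrb, the second Dio2 probe and Dio2 in muscle.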
